A study of Mus musculus with 6 samples.

Results

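The genes described here are the transcriptional readouts, receptors and transcription factors of the Hedgehog pathway in mouse mesoderm: Gli1, Ptch1, Hhip, Gli2, Gli3, Smo, Cdon, Boc and Gas1. They were taken by symbol, 9 of 24975 genes in the table, and each symbol matched 1 row. RNA had been sequenced from mesoderm sorted at embryonic day 7.5, with 1000 cells per library and 3 libraries in each of 2 groups. The Gli3R group carried Mesp1-Cre/+;R26-Gli3R-IRES-Venus/+, so that cells that had expressed Mesp1-Cre made Gli3R, a repressor form of Gli3, together with Venus. The control group carried Mesp1-Cre/+;R26-tdTomato/+, so that the Cre allele was shared and only the reporter was switched on. Littermates were pooled for each library, and each of 3 litters gave 1 library of each genotype. Per the notes in the deposited table, Gli3R cells were sorted by Venus and control cells by tdTomato, so the repressor, the reporter and the sort cannot be told apart.

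Hedgehog ligands bind Ptch1, a membrane protein that otherwise holds the transducer Smo inactive, and Cdon, Boc and Gas1 act as co-receptors on the same cell. Active Smo changes the balance of Gli2 and Gli3 between activator and repressor forms, and Gli1, Ptch1 and Hhip are induced in nearly every tissue that responds, which is why their RNA serves as a readout. Ptch1 and Hhip proteins bind ligand and dampen the response, and Cdon, Boc and Gas1 have been described in mouse embryos as genes that the pathway lowers. In the mouse gastrula, Indian hedgehog comes from visceral endoderm and Sonic hedgehog from the node and notochord.

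Library totals ran from 5481190 to 12635151 counts, so that 1 read stood for 0.0775 to 0.185 CPM (a gene's reads relative to library size, with TMM scaling). Control replicate 1 had the lowest total and lay apart from the other libraries on the first principal component, which held 35.0% of the variance (39.8 against -19.2 to 2.25). All 12 genes of a list of gastrula mesoderm markers passed the filter on low counts, with a summed level of 511 to 638 CPM in Gli3R and 448 to 542 CPM in control libraries. Of these, 8 had a log2 fold change below 0 and 4 above (median -0.29), and Bmp4 (202 CPM in Gli3R, 126 CPM in control) and Hand1 (180 CPM in Gli3R, 133 CPM in control) made up much of the sum. Msgn1 and Lefty2 of this list, both below 0, would not have passed the filter through the Gli3R libraries alone. In all, 13 genes were lower and 3 higher in Gli3R at an adjusted p under 0.05 of 11913 tested (quasi-likelihood test of edgeR, p adjusted by Benjamini-Hochberg), which is 0.109% and 0.0252% of them, or 0.134% in all. Of the 9 Hedgehog genes, 7 passed the filter and 0 of these were called, by edgeR or by DESeq2 (which called 0.789% of all genes), while 3 had an unadjusted p under 0.05 in edgeR, as did 6.85% of all genes tested. With litter as a block 0 of the 7 were called too, against 0.151% of all genes as lower and 0.0755% as higher (0.227% in all). Gli1 and Hhip were under the filter and are given by their reads.

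The readout genes Ptch1 and Hhip have an upstream window in RefSeq (GRCm38.p6), shown here since their RNA was lower in Gli3R in each litter.
Each window holds the 250 bases before a transcript start and is written 5′ to 3′ on the gene's own strand, with capitals marking CCACCC or its reverse complement, the core of the site that Gli proteins bind. The Ptch1 window is chr13:63565736-63565985 on the minus strand and lies within the annotated gene, before a start that is not its outermost. The Hhip window is chr8:80058009-80058258 on the minus strand.

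Ptch1: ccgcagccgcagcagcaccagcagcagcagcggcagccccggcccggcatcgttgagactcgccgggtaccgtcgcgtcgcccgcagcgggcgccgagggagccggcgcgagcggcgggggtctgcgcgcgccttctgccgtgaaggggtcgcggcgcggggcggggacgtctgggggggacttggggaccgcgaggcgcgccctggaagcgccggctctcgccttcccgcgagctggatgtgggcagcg

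Hhip: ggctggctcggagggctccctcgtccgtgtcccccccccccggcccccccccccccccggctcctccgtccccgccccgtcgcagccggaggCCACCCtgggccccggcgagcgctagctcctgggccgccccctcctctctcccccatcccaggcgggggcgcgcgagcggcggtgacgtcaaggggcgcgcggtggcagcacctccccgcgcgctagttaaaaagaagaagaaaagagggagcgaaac

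The full Gli consensus GACCACCCA was searched on both strands. It was found in none of the 7 windows that RefSeq gave for these 9 genes, either exactly or with 1 base different, and in 0.225% and 5.79% of all 32851 windows of that length. Besides that of Ptch1, the windows of Cdon, Gli2 and Hhip lay 30548, 786 and 52 bases from the outermost annotated start. A window without a match therefore does not stand for every promoter of its gene. The core CCACCC, chosen after the sequences had been seen, stood 158 to 153 bases upstream of the start of Hhip and not in the Ptch1 window. It was present in 28.1% of all windows and in 4 of the 7. These windows are 78.4% (Ptch1) and 76.0% (Hhip) G and C. The counts come from the build mm9, so no read is placed on these windows.

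Gli3 was examined first, because the transgene encodes a form of it. It had 562, 304 and 332 reads in Gli3R replicates 1, 2 and 3, against 139, 307 and 271 reads in control replicates 1, 2 and 3. These stand for 43.6, 38.9 and 50.8 CPM in Gli3R and 25.7, 29.5 and 34.3 CPM in control libraries. Every Gli3R library lay above every control library, and the Gli3R library was higher in each litter, by 0.76, 0.40 and 0.57 on the log2 scale in litters 1, 2 and 3. The fitted log2 fold change was 0.57 ± 0.15 (SE; 95% interval 0.24 to 0.90) and missed the threshold (adjusted p = 0.312 by Benjamini-Hochberg in edgeR). The part of Gli3 that the transgene carries and the species it comes from are not given in the labels, so the count may or may not hold transgene reads, and reads per gene cannot separate them from the endogenous gene.

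The 3 readout genes had the fewest reads of the 9 in the Gli3R libraries, and each was lower in Gli3R in each litter. In control libraries Cdon, with 59 reads, was sparser than Ptch1, with 72. Together Gli1, Ptch1 and Hhip had 14, 14 and 9 reads in Gli3R replicates 1, 2 and 3, against 33, 76 and 47 in control replicates 1, 2 and 3. Their summed level was 1.42 ± 0.35 CPM in Gli3R and 6.45 ± 0.74 CPM in control libraries (SD, n = 3 each), and the groups did not overlap. Summed over litters the ratio of Gli3R to control was 0.206 (95% interval 0.140 to 0.297, exact, covering counting error only). It was 0.178, 0.245 and 0.232 in litters 1, 2 and 3. The sum weights Ptch1 most, and 3 libraries against 3 cannot give an exact permutation p below 0.1, which was reached here (two-sided).

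Gli1 encodes a transcriptional activator whose own gene is switched on by Hedgehog signalling. It had 5, 5 and 2 reads in Gli3R libraries (0.387, 0.640 and 0.306 CPM) and 16, 19 and 9 in control libraries (2.96, 1.82 and 1.14 CPM). The highest Gli3R library lay below the lowest control library. The read ratio of Gli3R to control was 0.131, 0.351 and 0.269 in litters 1, 2 and 3, with 95% counting intervals of 0.0375 to 0.374, 0.102 to 0.971 and 0.0283 to 1.30, so that litter 3 alone does not separate the pair. Over all litters it was 0.237 (0.114 to 0.457). The annotated span of Gli1 overlaps that of Arhgap9, which had 15 reads in Gli3R and 21 in control libraries, and reads from the overlap cannot be assigned with certainty.

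Ptch1, the receptor gene and itself a target, had 8, 8 and 5 reads in Gli3R and 11, 38 and 23 in control libraries. Its level was 0.620, 1.02 and 0.766 CPM in Gli3R and 2.04, 3.65 and 2.91 CPM in control libraries, with no overlap. The litters gave log2 ratios of -1.72, -1.83 and -1.93. On so few reads the 95% counting intervals of the read ratio were wide, at 0.106 to 0.831, 0.113 to 0.610 and 0.0781 to 0.707 in litters 1, 2 and 3. The fitted log2 fold change was -1.89 ± 0.38 (SE; 95% interval -2.75 to -1.03), which ranked 48 by p among 11913 genes and missed the threshold (adjusted p = 0.169 by Benjamini-Hochberg in edgeR). Ptch1 passed the filter on low counts through the control libraries alone, so that its presence among the tested genes is not independent of its direction.

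Hhip encodes a membrane-anchored protein that binds Hedgehog ligands and keeps them from Ptch1. It had 1, 1 and 2 reads in Gli3R and 6, 19 and 15 in control libraries. Each Gli3R library was thus under 3 reads, the limit that a count of 0 allows, while each control library was above it. The read ratio over all litters was 0.0870 (95% counting interval 0.0226 to 0.241), and within litters 1, 2 and 3 it was 0.0698, 0.0701 and 0.161. The upper ends of the counting intervals were 0.575, 0.441 and 0.694, all below 1. Hhip was the lowest of the 9 genes per transcript length in each group.

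With the filter dropped, 18719 genes were tested and 0.577% were called, 0.315% as lower and 0.262% as higher. Hhip fell there, at a log2 fold change of -3.32 ± 0.72 (SE) with an edgeR quasi-likelihood Benjamini-Hochberg adjusted p of 0.0234. Ptch1 fell as well (-1.88 ± 0.44, adjusted p = 0.0425 in edgeR), and Gli1 did not pass (-2.07 ± 0.57, adjusted p = 0.139 in edgeR). When litter was added as a block to that fit, a combination chosen after the data were seen in which 1.52% of genes were called (0.662% lower and 0.855% higher), the edgeR adjusted p was 0.0191 for Hhip, 0.0194 for Ptch1 and 0.0635 for Gli1, and Gli3 rose at 0.0109. The call of Ptch1 therefore rests on the filter, while its size does not. Hhip was not fitted with the filter on all 6 libraries, so its size cannot be compared in this way.

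**Figure D1:**
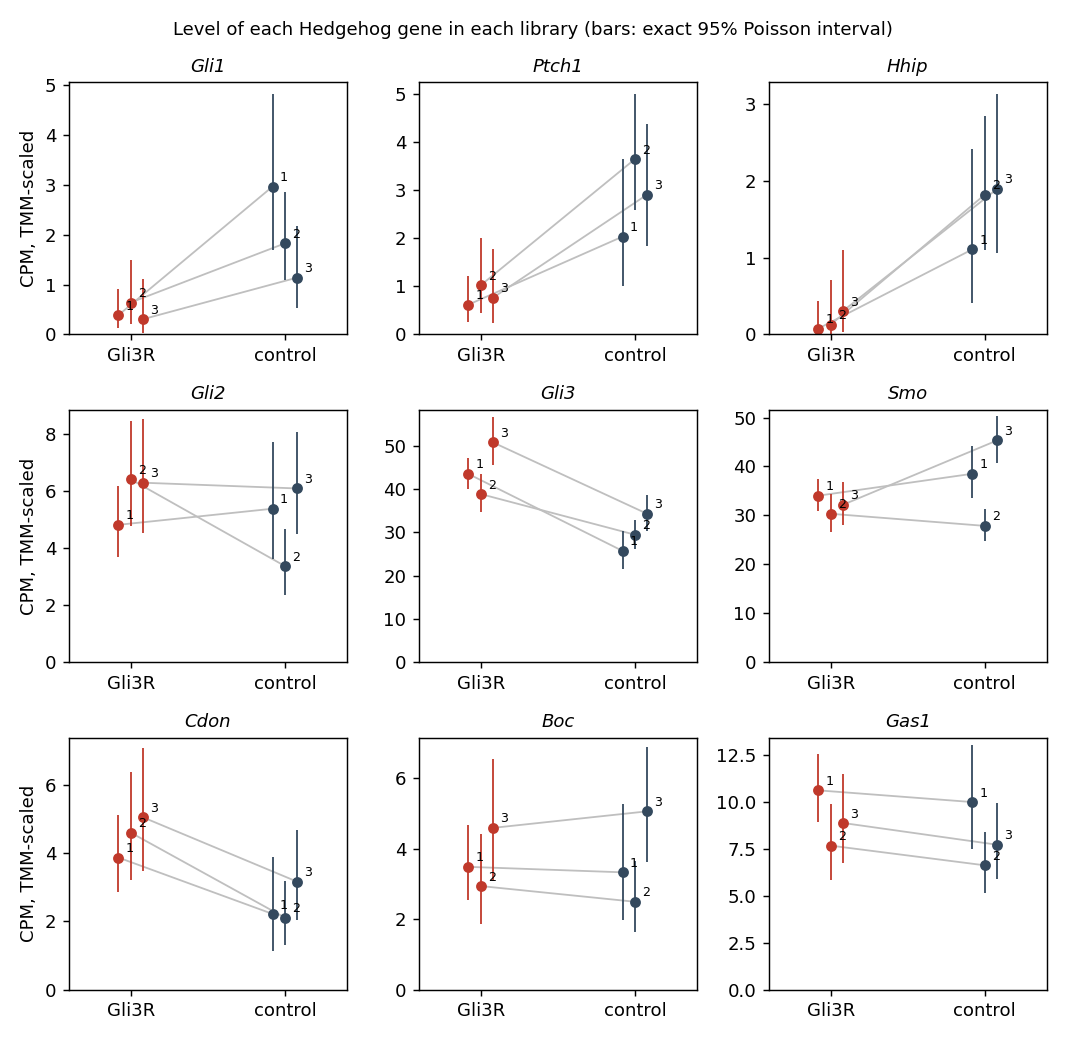
Level of each gene (CPM, TMM-scaled, y axes from 0) in the 3 Gli3R libraries (red, left) and the 3 control libraries (blue, right), with exact 95% Poisson intervals and grey lines joining libraries of the same litter (numbers 1 to 3). The Gli1, Ptch1 and Hhip points of Gli3R all lie below those of control, those of Gli3 and Cdon all lie above, and those of Gli2, Smo, Boc and Gas1 overlap.

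Several cell type marker lists differed between the groups along with the readouts, and their part in these differences was not tested. The summed level of 8 paraxial mesoderm genes, such as Fst and Dll3, was 75.0 to 165 CPM in Gli3R and 221 to 331 CPM in control libraries, and 8 of 8 had a log2 fold change below 0. This sum is mostly Aldh1a2 (72.1 CPM in Gli3R, 167 CPM in control), which was not called (edgeR quasi-likelihood Benjamini-Hochberg adjusted p = 0.292). Ripply2, Dll1 and Msgn1 of this list would not have passed the filter through the Gli3R libraries alone. Their direction is thus not independent of it. The sum of 9 epiblast and neural ectoderm genes was 43.9 to 52.8 CPM in Gli3R and 56.2 to 134 CPM in control libraries, with 5 of 6 tested members below 0. Control replicate 1 held the upper end, and control replicates 2 and 3 stood at 70.5 and 56.2 CPM. Cdh1 and Hesx1 of this list passed the filter through the control libraries alone, so that their direction is not independent of it. The sum of 9 extraembryonic mesoderm and allantois genes was 529 to 726 CPM in Gli3R and 378 to 480 CPM in control libraries, with 7 of 9 above 0. The sum of blood and endothelial genes (343 to 745 CPM in Gli3R, 290 to 529 CPM in control) overlapped between the groups. Much of it was Hbb-bh1 (272 CPM in Gli3R, 251 CPM in control). Of the 7 tested genes of that list, 5 had a log2 fold change above 0 and 2 below, and 0 were called. An unadjusted p under 0.05 in edgeR was reached by 4 of them, beside 6.85% of all genes tested. They were Tal1, Etv2 and Runx1, higher in Gli3R, and Lmo2, lower. Sums of endoderm genes (14.2 to 51.0 CPM in Gli3R, 12.6 to 41.0 CPM in control) overlapped too, as did the node and notochord list (65.5 to 89.6 CPM in Gli3R, 76.8 to 101 CPM in control), whose sum is mostly Cer1. Of the defining node genes, Foxj1 was at 0 in every library, Noto had 11 reads in control replicate 1 and 0 elsewhere, and Foxa2 had 0 reads in Gli3R and 3, 11 and 5 in control libraries. Cer1, Chrd and Nog of the node and notochord list did not fall in this way, while T was lower in each litter. Chrd had 1, 3 and 0 reads in Gli3R and 2, 0 and 2 in control libraries. Nog had 13, 10 and 10 reads in Gli3R and 4, 16 and 6 in control libraries (log2 fold change 0.21 ± 0.44, SE). T (brachyury), which marks primitive streak and notochord, stood at 8.06, 5.12 and 3.52 CPM in Gli3R and 43.5, 16.3 and 7.98 CPM in control libraries. Its log2 fold change was -1.93 ± 0.55 (SE; edgeR quasi-likelihood Benjamini-Hochberg adjusted p = 0.402, and 0.0373 with litter as a block). In bulk samples, fewer cells of a responding type and less RNA per cell cannot be told apart. Without control replicate 1, Ptch1 stood at -2.06 ± 0.41 and the log2 read ratios of Gli1 and Hhip were -1.80 and -3.66.

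The ligand genes were almost silent in the sorted cells. Shh had 0 reads in Gli3R and 1 in control libraries (replicate 3). Ihh had 0 reads in Gli3R and 3 in control libraries (1, 0 and 2 in replicates 1, 2 and 3), and Dhh had 3 reads in Gli3R (1, 2 and 0) and 0 in control libraries. A count of 0 allows up to 0.110 CPM over the Gli3R and 0.127 CPM over the control libraries. No ligand gene was thus above that limit of 3 reads in either group, and no fold change is given.

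Among the Gli genes, Gli2, which acts chiefly as an activator, showed no shift beyond the spread of the libraries. It stood at 4.80, 6.40 and 6.28 CPM in Gli3R and 5.37, 3.36 and 6.08 CPM in control libraries, with a log2 fold change of 0.25 ± 0.28 (SE; 95% interval -0.38 to 0.87; edgeR quasi-likelihood Benjamini-Hochberg adjusted p = 0.993). Litter 2 differed from the others in that its control library held the lowest value, which set the Gli3R library 0.93 higher on the log2 scale, against -0.16 and 0.05 in litters 1 and 3. Of all reads that fell on Gli1, Gli2 or Gli3, Gli3 took 89.4%, 84.7% and 88.5% in Gli3R and 75.5%, 85.04% and 82.6% in control replicates 1, 2 and 3 (groups overlap, exact permutation p = 0.2, two-sided). Gli1 took 0.907% ± 0.441 of them in Gli3R and 5.57% ± 2.99 in control libraries (SD, n = 3 each), with no overlap (exact permutation p = 0.1, the smallest this design allows). These shares are of reads and are not corrected for transcript length. Most of the reads are those of Gli3, so its higher count in Gli3R, which may hold transgene reads, by itself lowers the share of Gli1 there.

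Smo, the transducer that Ptch1 restrains, was the most abundant of the 9 per transcript length. It stood at 34.0, 30.3 and 32.2 CPM in Gli3R and 38.5, 27.8 and 45.3 CPM in control libraries. The control libraries spread on both sides of the Gli3R libraries, and the direction within litters was mixed (-0.18, 0.12 and -0.50 on the log2 scale). The log2 fold change was -0.20 ± 0.17 (SE), and its 95% interval of -0.59 to 0.18 leaves room for a level between 0.665 and 1.14 times that of control (edgeR quasi-likelihood Benjamini-Hochberg adjusted p = 0.960).

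The co-receptor genes were low to moderate in level, and Cdon alone separated the groups. Cdon, an immunoglobulin-domain co-receptor, had 50, 36 and 33 reads in Gli3R and 12, 22 and 25 in control libraries, or 3.87, 4.61 and 5.05 CPM against 2.22, 2.11 and 3.17 CPM. Every Gli3R library was above every control library, and each litter gave a higher Gli3R value (0.80, 1.12 and 0.68 on the log2 scale). The log2 fold change of 0.83 ± 0.28 (SE; 95% interval 0.21 to 1.46) missed the threshold (adjusted p = 0.512 by Benjamini-Hochberg in edgeR).

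Boc, a co-receptor related to Cdon, stood at 3.49, 2.94 and 4.59 CPM in Gli3R and 3.33, 2.50 and 5.06 CPM in control libraries. The litters lay in the same order in each group, and the log2 fold change was 0.01 ± 0.33 (SE; 95% interval -0.72 to 0.75). Its direction turned when single libraries were left out. Gas1, a GPI-anchored co-receptor, stood at 10.6, 7.68 and 8.88 CPM in Gli3R and 9.99, 6.63 and 7.72 CPM in control libraries. It was slightly higher in Gli3R in each litter, with overlapping groups and a log2 fold change of 0.19 ± 0.22 (SE; 95% interval -0.31 to 0.68). Neither gene passed (edgeR quasi-likelihood Benjamini-Hochberg adjusted p = 0.999 for Boc and 0.995 for Gas1). Summed, the co-receptors had 17.2 ± 1.77 CPM in Gli3R and 14.2 ± 2.62 CPM in control libraries (SD, n = 3 each; exact permutation p = 0.3).

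**Figure D2:**
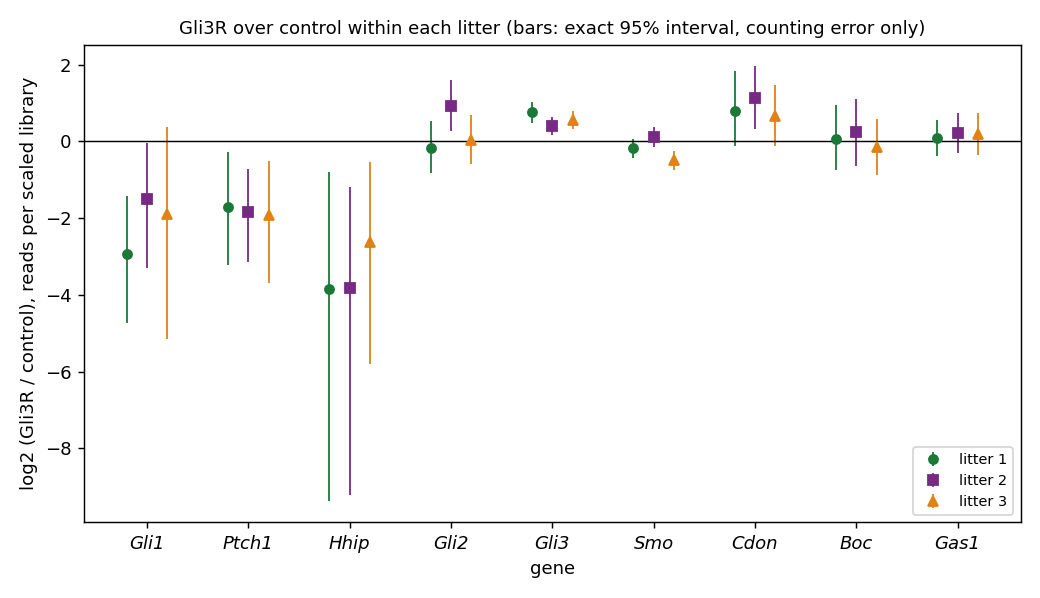
Log2 ratio of Gli3R to control within each litter (y axis) for each gene (x axis), with circles, squares and triangles for litters 1, 2 and 3 and exact 95% intervals that cover counting error only. Ptch1, Gli1 and Hhip lie below 0 in 3 of 3 litters, Gli3, Cdon and Gas1 above 0 in 3 of 3, and Gli2, Smo and Boc on both sides.

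Across the 9 genes, the groups did not overlap for 5, of which 3 were lower and 2 higher in Gli3R. The same held for 10.3% of all genes with a read (5.38% lower and 4.88% higher). Among the 7 that passed the filter it was 3, beside 12% of all genes tested (6.32% lower and 5.65% higher). In 4 of the 7 that passed the filter the 3 litters gave 1 direction, beside 30.3% of all genes tested. Gli1 and Hhip, under the filter, gave 1 direction too, and no share over all genes with a read was computed for them. The genes that were lower are those that serve as readouts, and the higher ones are Gli3, whose count may hold transgene reads, and Cdon.

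Per kilobase of the longest coding transcript in GENCODE M21, Smo led in each group, at 8.51 ± 0.49 CPM per kb in Gli3R and 9.85 ± 2.33 CPM per kb in control libraries (SD, n = 3 each). Gli3 followed at 5.44 ± 0.74 in Gli3R and 3.65 ± 0.53 in control, then Gas1 at 3.06 ± 0.50 in Gli3R and 2.74 ± 0.58 in control, in the same unit. In the Gli3R libraries these 3 genes and the next did not overlap, while in control libraries Gli3 and Gas1 overlapped. Boc, Gli2, Gli1, Ptch1 and Cdon then ran in control libraries from 0.816 ± 0.294 down to 0.333 ± 0.0772 CPM per kb, each overlapping its neighbour. In Gli3R libraries Gli2, Boc and Cdon ran from 0.878 ± 0.134 to 0.601 ± 0.0793 CPM per kb, clear of Gli1 (0.109 ± 0.0428) and Ptch1 (0.104 ± 0.0264), which overlapped each other. Cdon thus ranked below Gli1 and Ptch1 by its mean in control libraries and above them in Gli3R libraries. The transcript models used in counting are not known, so the lengths are approximate, but they are the same for both groups.

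**Figure D3:**
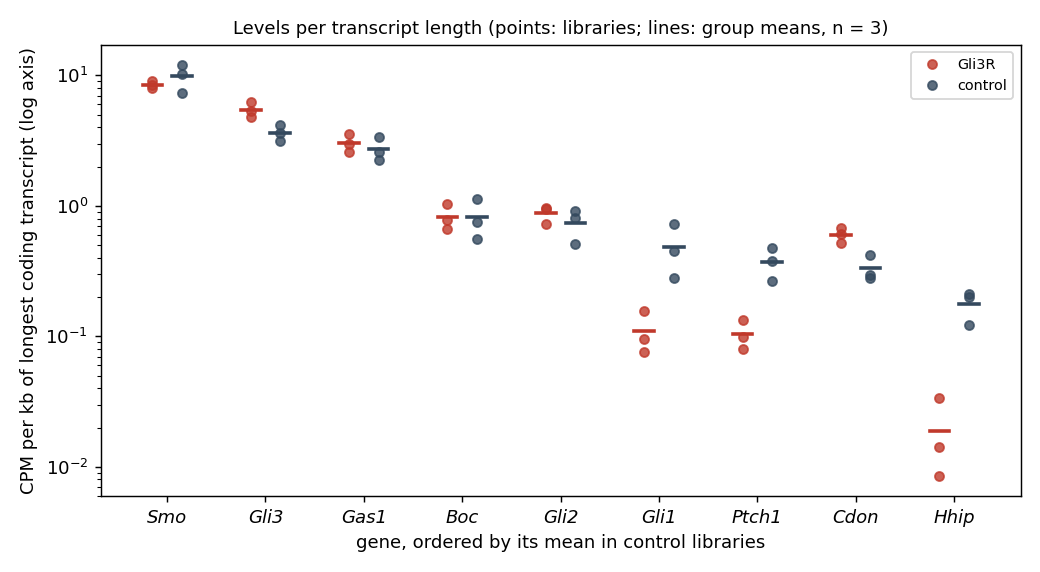
Level per kilobase of the longest coding transcript (CPM per kb, log axis) for the 9 genes, ordered by their control mean, with points for single libraries and lines for group means (red Gli3R, left; blue control, right). Smo is highest and Hhip lowest in each group, and Gli1, Ptch1 and Hhip are set apart downwards in Gli3R.

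The rest of the pathway was read from lists of 31 further components, of which 22 passed the filter and 0 were called (edgeR quasi-likelihood test, Benjamini-Hochberg adjustment). Of these, 12 had a log2 fold change above 0 and 10 below, with a median of 0.08 beside -0.01 for all genes tested, and 5 had an unadjusted p under 0.05, beside 6.85% of all genes tested. DESeq2 called 1 of them, Gpc3, and 0.789% of all genes it tested. Gpc3 encodes a cell surface glypican that binds Hedgehog ligand and competes with Ptch1. It stood at 316 ± 33.3 CPM in Gli3R and 477 ± 74.2 CPM in control libraries (SD, n = 3 each), with a log2 fold change of -0.60 ± 0.12 (SE; edgeR quasi-likelihood Benjamini-Hochberg adjusted p = 0.175, 0.0208 without control replicate 1 and up to 0.690 without another library). Other components among those with the smallest p were Prkaca, the catalytic protein kinase A gene (0.38 ± 0.14), the ubiquitin ligase gene Btrc (-0.31 ± 0.13), the endocytic receptor gene Lrp2 (0.58 ± 0.25) and the ciliary gene Evc2 (-0.56 ± 0.32), given as log2 fold changes ± SE. The pathway inhibitors Sufu (0.06 ± 0.42) and Kif7 (0.12 ± 0.31) were sparse, with wide errors. The ligand release gene Disp1 was at 0 in every library.

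Of 32 genes described as Hedgehog targets in other settings, 23 passed the filter, and 2, Ccnd1 and Hsd11b2, fell while 0 rose (edgeR quasi-likelihood test, Benjamini-Hochberg adjustment), beside 0.109% lower and 0.0252% higher of all genes tested. Their median log2 fold change was -0.33, with 16 below 0 and 7 above, beside a median of -0.01 for all genes tested. Foxf2, below 0, passed the filter through the control libraries alone, and Igf1, above 0, through the Gli3R libraries alone. The list was drawn up with earlier results of these data known, so that its direction is no independent evidence. Ccnd1, which encodes cyclin D1, stood at 48.7 ± 7.02 CPM in Gli3R and 90.4 ± 2.51 CPM in control libraries (SD, n = 3 each), and Hsd11b2, which inactivates glucocorticoids, at 4.37 ± 0.61 CPM in Gli3R and 16.5 ± 5.67 CPM in control libraries. Each lost its call when Gli3R replicate 1, 2 or 3 or control replicate 2 or 3 was left out. With litter as a block Bmp4, which encodes a growth factor, rose too (edgeR quasi-likelihood Benjamini-Hochberg adjusted p = 0.0424, against 0.245 without the block).

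**Figure D4:**
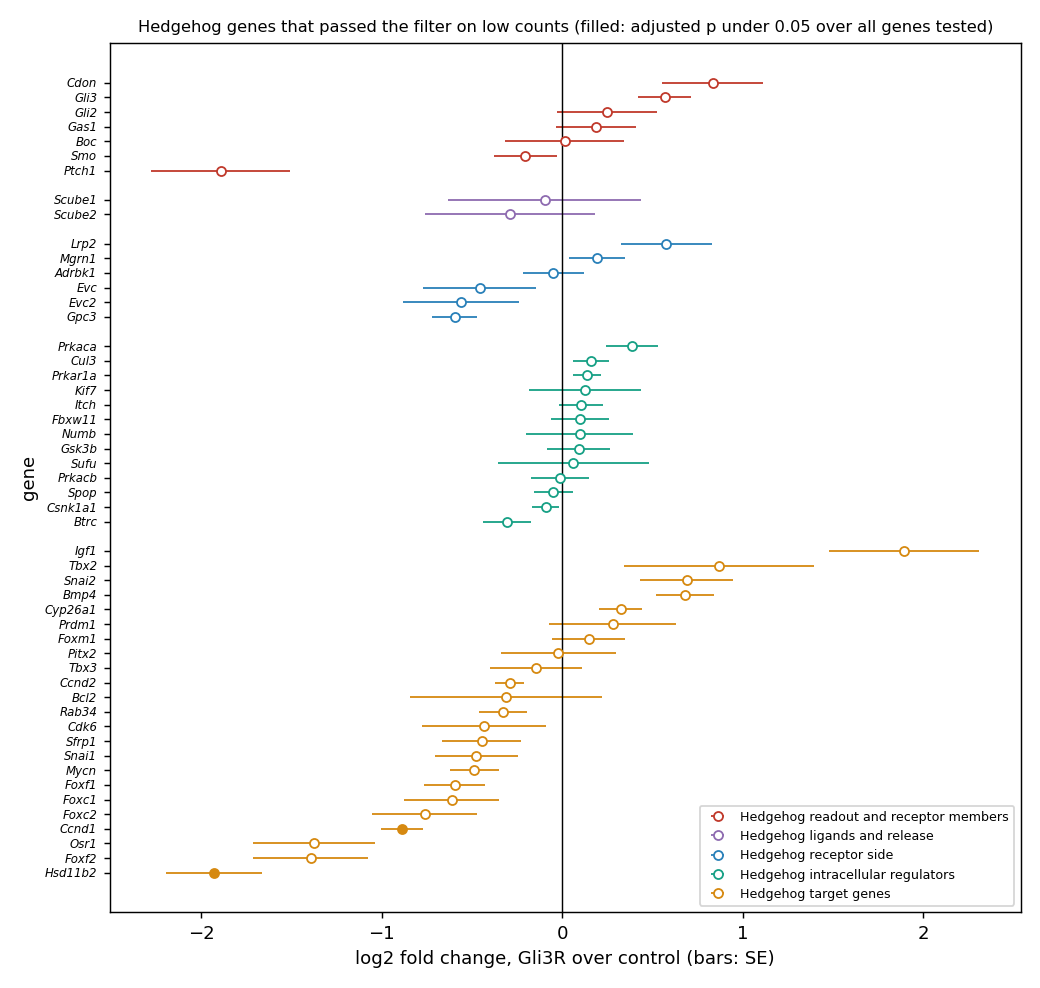
Log2 fold change of Gli3R over control (x axis, bars SE) for Hedgehog genes that passed the filter on low counts, grouped by list, with filled points for an adjusted p under 0.05 over all genes tested. Ptch1 stands alone at -1.89 among the receptor and Gli genes, the intracellular regulators lie between -0.31 and 0.38, and Ccnd1 and Hsd11b2 are the only filled points.

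Genes whose log2 CPM followed that of Ptch1 most closely over the 6 libraries, at a mean of at least 5 CPM, were Mettl22, D030056L22Rik, Cdc23, Cetn2 and Cd320 (Pearson r from 0.997 to 0.983). Their log2 fold changes ran from -0.29 to -0.17, much smaller than that of Ptch1, and 94 of 9332 genes reached an r of 0.9. For Gli3 the closest were Bet1, Krcc1, Bnip3l, Rbpms and Stxbp5 (0.996 to 0.984), with log2 fold changes from 0.17 to 0.41. Among the Hedgehog genes themselves, Cdon followed Gli3 most closely (r = 0.92) and Ptch1 ran opposite to Cdon (-0.82) and Gli3 (-0.80). These values describe 6 libraries in 2 groups and 3 litters, which are not independent points. Group means were not removed, so the correlations include the difference between Gli3R and control already given and do not show variation within a group.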

How the data were processed

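The authors deposited raw counts per gene, whole numbers for 1 column per library and 1 row per Entrez gene ID; per the submitters' processing notes the tools were FastQC, TopHat2 2.0.14, Subread 1.4.6, featureCounts and edgeR, with the build mm9. No annotation or strand setting is named there, so overlapping genes are uncertain. Nextera XT libraries of SMARTer cDNA were sequenced, per the labels' protocols. No molecular tags are named, so intervals and floors (3 counts) cover counting error only.

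Counts were filtered with filterByExpr (minimum count 10), scaled by TMM and tested with the edgeR 4.0.16 quasi-likelihood test in R 4.3.3, two-sided, on the whole table with p adjusted by Benjamini-Hochberg and called under 0.05. Standard errors were taken as the log2 fold change over the root of F. Read ratios carry exact 95% intervals (Clopper-Pearson), shares Wilson intervals, and single libraries exact Poisson intervals. Lengths came from GENCODE M21 and upstream windows from RefSeq GRCm38.p6. Of the gene IDs, 96.7% matched the reference table. The fit was checked on simulated data with and without the filter.

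A replicate number marks a shared litter in the labels. Deviations of the paired libraries correlated at r = 0.168, 0.187 and 0.0755 in litters 1, 2 and 3, against -0.269 to 0.162 between libraries of different litters, so that litter 3 lay within that range. The pairing is taken from the labels, and the fit with litter as a block is an alternative. Libraries differed by more than sampling noise (chi-square per gene of 4.12 to 15.2), and p-values measure the spread between pools of embryos. The alternatives were that block, scaling by library size or by the size factors of DESeq2, the DESeq2 1.42.0 test, no filter, at least 5 CPM in 3 libraries, and leaving out each library or litter 1. The genes and lists were chosen with earlier results of these data known. All 9 Hedgehog genes are named, as are other pathway and target genes that passed or, in a list with none that passed, the 6 with the smallest p (1 of which is not reported here), and the 5 genes most like Ptch1 and Gli3. Bmp4, Hand1, T, Foxj1, Noto, Foxa2, Fst, Dll3, Cer1, Sufu, Kif7 and Disp1 were added after their values were seen. The same holds for Aldh1a2, Cdh1, Hesx1, Chrd, Nog, Foxf2, Igf1, Ripply2, Dll1, Msgn1, Lefty2, Hbb-bh1, Tal1, Etv2, Runx1 and Lmo2.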

Additional observations from a re-analysis of the deposited data

How the results depend on the processing

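Ptch1, Gli1, Hhip, Gli3, Cdon, Gas1, Gli2 and Smo kept their direction under every alternative run. For Gas1, Gli2 and Smo this means little, since they came close to no change. Without single libraries they ran from 0.047 to 0.356, from 0.0104 to 0.447 and from -0.379 to -0.0291 on the log2 scale. Without single libraries Ptch1 ran from -2.09 to -1.66, Gli3 from 0.464 to 0.678 and Cdon from 0.708 to 1.05, and the log2 read ratios of Gli1 and Hhip from -2.36 to -1.80 and from -4.13 to -3.01. Boc ran from -0.221 to 0.352 and turned below 0 without Gli3R replicate 3, control replicate 1 or control replicate 2. Without the low-count filter Ptch1 (-1.88) passed, and with the litter (replicate) block in that fit so did Ptch1 (-1.80) and Gli3 (0.58). The Hedgehog genes called lower were 2 without the filter, and 2 lower and 1 higher with the block as well. The pathway genes called lower were 1 with the DESeq2 test, without the filter, without litter 1, and without the filter with the block (there 1 was higher too), and 0 to 1 without single libraries. The target genes called higher were 1 with the litter block, 1 with the DESeq2 test, 2 without the filter and 3 without the filter with the block, where 5 were lower. Between 0 and 2 target genes were lower without single libraries.

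Over all genes, 9 were higher with the litter block, 5 with library size alone, 1 at 5 CPM or more, 43 higher and 51 lower with the DESeq2 test, 49 and 59 without the filter, 160 and 124 without the filter with the block, and 5 and 22 without litter 1. Leaving out single libraries gave 0 to 2 higher and 0 to 16 lower (0 without Gli3R replicate 3, with 659 at an unadjusted p under 0.05). Boc, Cdon and Ptch1 have no value at 5 CPM or more. The cause of these shifts was not tested. Gli1 and Hhip rest on 56 and 44 reads in all, and Hhip on 4 in Gli3R, so that their intervals are wide.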
